A study of Mus musculus with 2 samples.

Results

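DNA methylation of 10 Notch pathway genes was followed in cultured mouse muscle cells. They were the ligand genes Dll1, Dll4, Jag1 and Jag2, the receptor genes Notch1, Notch2, Notch3 and Notch4, and the target genes Hes1 and Hey1. All 10 were listed by name, and the CpG cytosines with at least 5 reads in both libraries that lay within 1 kb of the gene's start, in the rest of the gene or in a CpG island touching either were taken, leaving out those inside CCGG or TCGA. This gave 1915 cytosines of 1065 CpGs, out of 1850635 in the whole data set. Methylation had been measured by reduced representation bisulfite sequencing, which reads the CpG-rich ends of fragments cut by MspI and TaqαI. The 2 libraries came from a mouse C3H myoblast line, differentiated into myotubes and harvested 48 h after transfection with a control siRNA (siCon) or with an siRNA that targets H19, a long non-coding RNA (siH19). No genotype, strain beyond C3H or share of unfused cells was given in the sources used here, and both groups shared the cell line, the differentiation and the transfection. With 1 library per group, each test below compares 2 libraries and not 2 conditions, no difference has a replicate check, and whether H19 was reduced cannot be read from DNA methylation.

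Notch signalling passes between touching cells. A Delta-like or Jagged ligand on one cell binds a Notch receptor on its neighbour, the receptor is cleaved first by an ADAM protease and then by γ-secretase, and the freed intracellular part joins the DNA-binding protein Rbpj to switch on Hes and Hey repressor genes. In the muscle lineage the pathway is known for keeping myoblasts and satellite cells undifferentiated. CpG islands at gene starts are usually unmethylated, whereas CpGs inside transcribed genes and outside islands are usually methylated.

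The siCon library held 104999613 reads summed over 5453019 cytosines and the siH19 library 106372792 over 5266846, and the median depth of the cytosines taken from the 10 genes was 28 reads in both. A methylation level is given as methylated reads over all reads of the cytosines in a region, with its Wilson 95% interval. A difference between the libraries, always siH19 minus siCon, is given in percentage points at matched weight, meaning that each cytosine counts equally in both libraries, because levels of summed reads also move when reads fall on other cytosines. Regions with at least 5 cytosines were tested by the Cochran-Mantel-Haenszel test with the cytosine as stratum and were called at a Benjamini-Hochberg adjusted p under 0.05 with at least 10 points. Intervals cover counting error only, and reads that span several CpGs are not independent, so that p-values are too small.

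The starts of the Notch genes were weakly methylated in both libraries. Of the 10 windows within 1 kb of the start, 9 could be tested, and their median level was 1.11% in siCon and 1.93% in siH19, beside 3.74% and 3.73% for 19651 windows of all genes. All 10 genes code for proteins, and the 13761 tested windows of protein-coding genes had medians of 2.03% and 1.99%. Dll1 and Notch1 had the most methylated windows, at 11.9% (10.9 to 13.1) and 9.48% (8.41 to 10.7) in siCon, and Hey1, Hes1, Notch2 and Jag1 lay between 0.630% and 0.749%, with overlapping intervals. Levels in the rest of the gene differed widely. They ranged in siCon from 75.3% (73.8 to 76.7) in Notch2 down to 6.54% (5.77 to 7.41) in Notch4 and 0.773% (0.490 to 1.22) in Hes1. Jag1 and Hey1 were also low, at 23.0% and 12.9%. The median was 53.4% over the 10 genes, against 58.9% over 17410 gene bodies and 63.1% over 13526 protein-coding ones. These levels rest on the used CpGs only, from 4.42% of those in the Notch2 body to 48.8% in the Hes1 body. Of the 1915 cytosines, 66.7% were below 10% in siCon, compared with 47.2% of all cytosines. The 1915 were taken only from start windows, gene bodies and touching islands, whereas all cytosines also include those between genes. The shares therefore do not compare like sets.

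**Figure D1:**
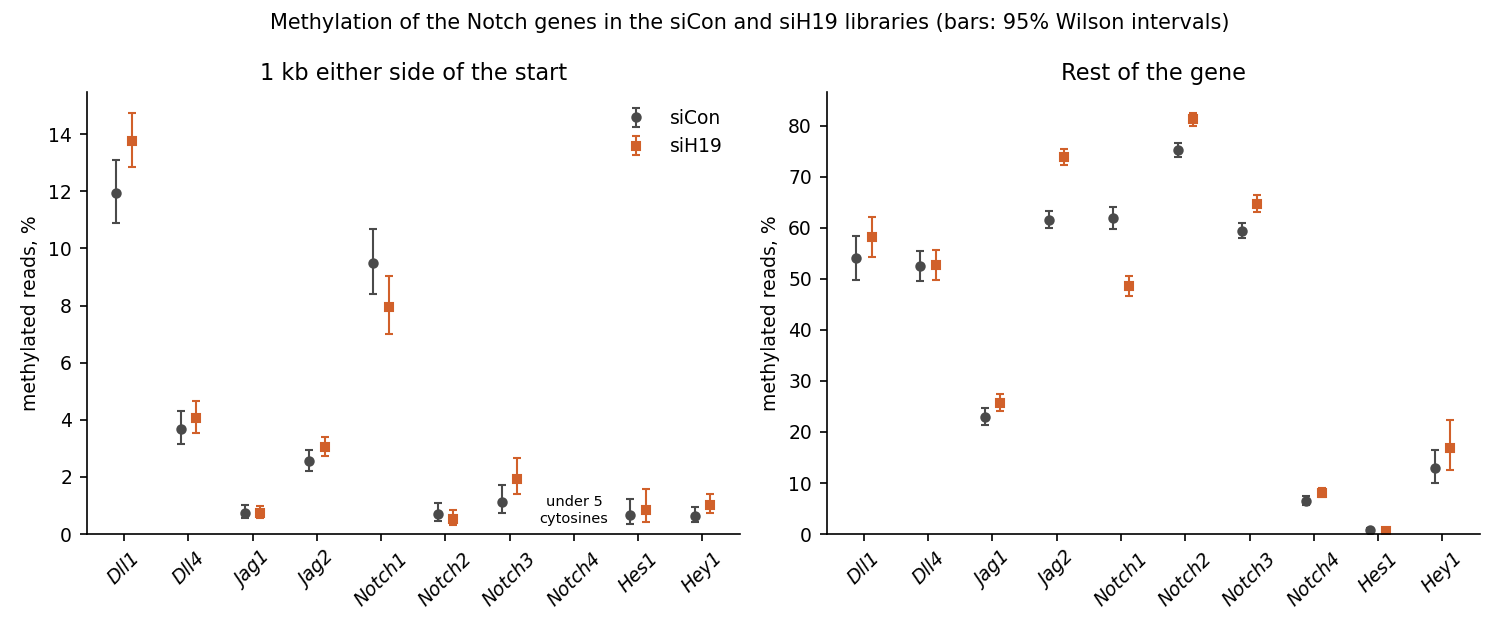
Methylated reads as a percentage of all reads within 1 kb of the start (left) and in the rest of the gene (right) for the 10 genes in siCon (circles) and siH19 (squares), with Wilson 95% intervals. Dll1 and Notch1 stand above the other windows, and Notch4, Hes1 and Hey1 have the least methylated gene bodies; the vertical scales of the panels differ.

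Dll1 (ENSMUSG00000014773.13, chromosome 17, minus strand), a ligand that activates Notch on neighbouring cells, was methylated on both flanks of its start. The level was 34.8% (30.6 to 39.3) in siCon and 38.8% (35.5 to 42.2) in siH19 from 1000 to 500 bases upstream, and fell to 2.84% (1.93 to 4.16) and 2.35% (1.70 to 3.24) in the first 500 bases of the gene. It rose again to 17.2% and 18.5% over the next 500 bases, to 43.9% in both libraries between 1 and 2 kb, and to 70.7% and 73.0% in coding exon 9. A computed CpG island of 128 used cytosines, chr17:15374641-15376923, spanned that whole trough, with 14.8% (13.7 to 16) in siCon and 15.6% (14.6 to 16.6) in siH19, so the methylated flanks lay within the island itself. The lincRNA gene A930024N18Rik starts on the opposite strand at position 15375000, inside this island.

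Dll4 (ENSMUSG00000027314.6, chromosome 2, plus strand), the ligand best known from sprouting vessels, had 3.69% (3.15 to 4.31) of reads methylated around its start in siCon and 4.05% (3.54 to 4.64) in siH19. Coding exon 9 reached 71.3% (67.8 to 74.5) and 73.1% (69.4 to 76.5), while coding exon 8, next to it, had 20.4% (14.5 to 28.1) and 25.1% (19.6 to 31.7). The gap between the summed levels of these neighbouring exons was therefore far wider than their counting intervals in both libraries. Their single cytosines overlapped, however. In siCon the 8 of exon 8 ran from 0% to 76.9% and the 14 of exon 9 from 5.26% to 100%. In siH19 they ran from 0% to 66.7% and from 0% to 100%. Gm14207, a processed transcript on the opposite strand, has starts inside the Dll4 island, and bisulfite reads do not say which of the 2 genes a level belongs to.

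Jag1 (ENSMUSG00000027276.7, chromosome 2, minus strand), a ligand of the Jagged family, had a weakly methylated start that went on into the gene. Levels stayed between 0.482% and 1.49% in siCon from 1 kb upstream to 1 kb downstream, and were 3.21% (2.45 to 4.18) from 1 to 2 kb and 3.68% (1.8 to 7.41) from 2 to 4 kb. The island over the start, chr2:137115824-137117712, had 0.749% (0.549 to 1.02) in siCon and 0.741% (0.566 to 0.971) in siH19 over 137 cytosines. Beyond 16 kb the gene was methylated at 86.1% (83.0 to 88.7) and 83.1% (80.2 to 85.6), and no cytosine in between was used.

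Jag2 (ENSMUSG00000002799.6, chromosome 12, minus strand), the other Jagged ligand, had 2 islands of unlike methylation at its start. The island over the start, chr12:112928341-112930126, had 1.95% (1.68 to 2.26) in siCon and 2.30% (2.03 to 2.60) in siH19 over 239 cytosines, the most of any island of these genes. A small island of 219 bases just upstream of it, singled out after its values were seen, had 50.8% (41.9 to 59.7) and 56.8% (48.5 to 64.8) over 10 cytosines. Its sequence is shown because single CpGs in it lay at both extremes: from its upstream end the levels of the 7 used CpGs in siCon were 0%, 100%, 85%, 75%, 28.6%, 0% and 26.7%, and in siH19 0%, 100%, 92.6%, 72.2%, 44.4%, 0% and 25%. The stretch is chr12:112930260-112930488 of GRCm38 on the minus strand, 5′ to 3′ in the direction of the gene, with the used CpGs in capitals.
Jag2 upstream: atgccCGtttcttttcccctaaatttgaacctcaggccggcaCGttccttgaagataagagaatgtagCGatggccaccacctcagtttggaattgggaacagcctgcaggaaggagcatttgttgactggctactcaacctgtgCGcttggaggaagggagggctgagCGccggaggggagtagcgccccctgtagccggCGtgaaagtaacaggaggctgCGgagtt
The order of the CpGs from most to least methylated was the same in both libraries, at depths of 8 to 27 reads per CpG and library. Within the gene, methylation rose from 2.83% (2.01 to 3.97) between 1 and 2 kb to 100% of 170 reads between 2 and 4 kb in siCon, and from 1.54% (0.780 to 3.0) to 96.9% (92.9 to 98.7) in siH19. The last coding exon of Jag2, exon 26, stood at 96.0% (94.2 to 97.3) and 95.5% (93.3 to 97).

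**Figure D2:**
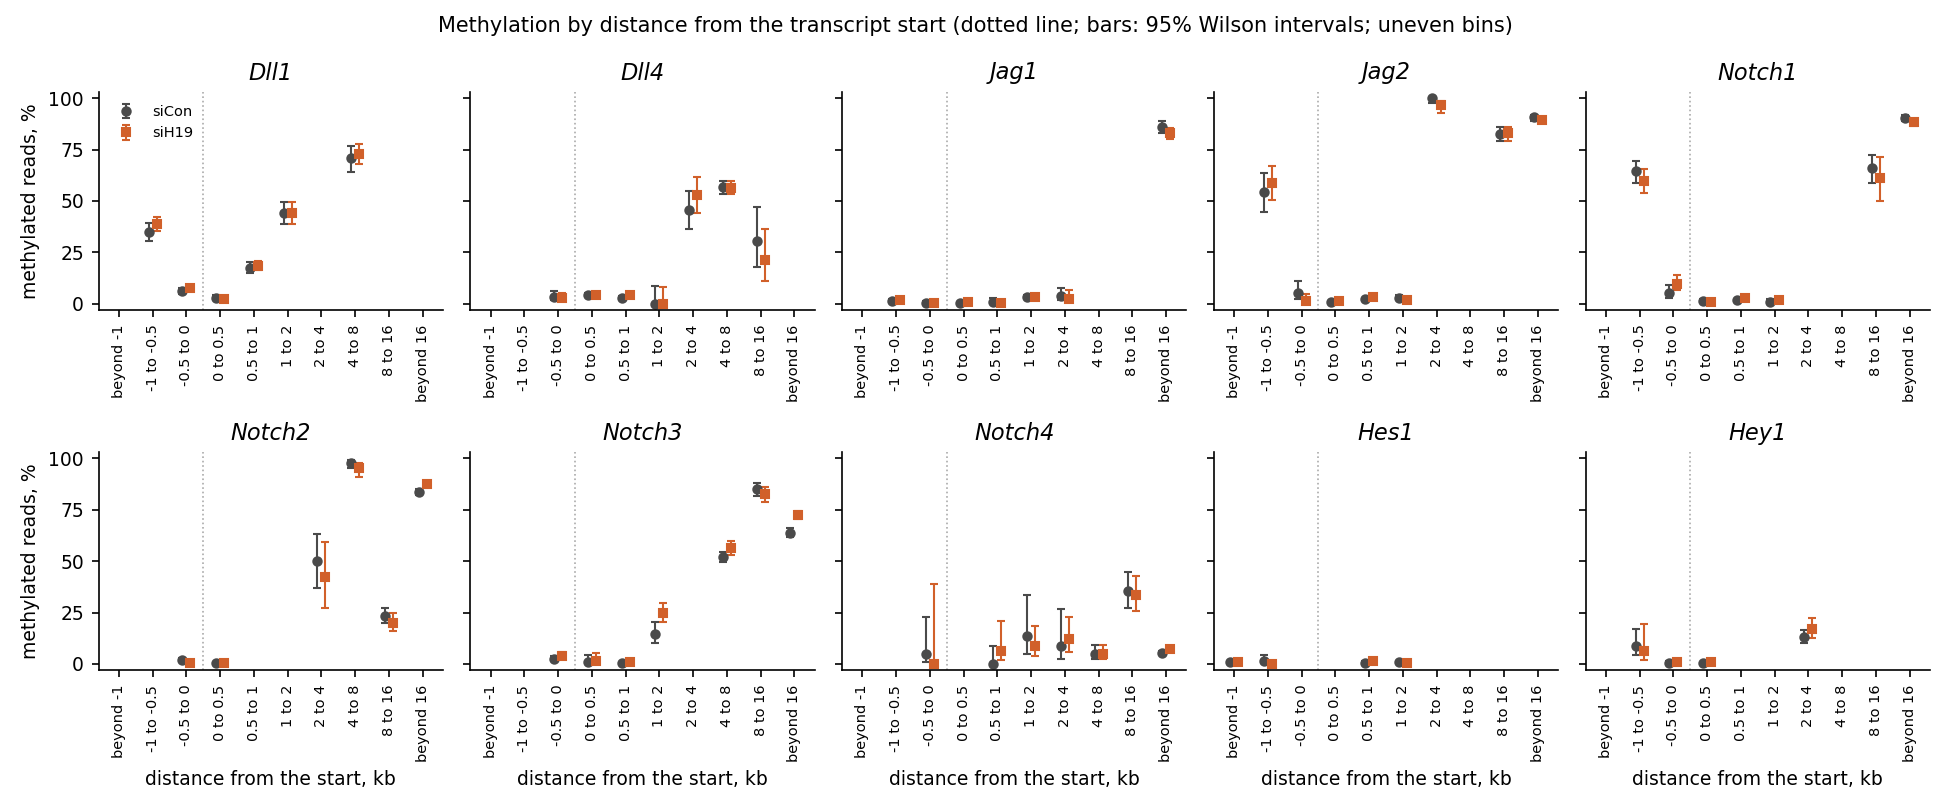
Methylated reads as a percentage of all reads by distance from the transcript start, in kb and in bins of uneven width, for siCon (circles) and siH19 (squares) with Wilson 95% intervals; bins with no used cytosine are empty. Dll1, Jag2 and Notch1 show methylated upstream flanks, Jag1 is low out to 4 kb, and Hes1 is low in all its bins.

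Notch1 (ENSMUSG00000026923.15, chromosome 2, minus strand), the receptor best studied in satellite cells, had a sharp upstream border. From 1000 to 500 bases before the start its level was 64.4% (58.9 to 69.4) in siCon and 59.8% (53.6 to 65.6) in siH19, and in the next 500 bases 5.21% (2.94 to 9.09) and 9.52% (6.37 to 14). Between the start and 2 kb it stayed between 0.877% and 2.53% in both libraries. The 119 bases chr2:26504434-26504552 (GRCm38, minus strand) hold all 14 used cytosines of that upstream block and are shown, 5′ to 3′ towards the start, with the used CpGs in capitals, because methylation stepped down along them.
Notch1 upstream: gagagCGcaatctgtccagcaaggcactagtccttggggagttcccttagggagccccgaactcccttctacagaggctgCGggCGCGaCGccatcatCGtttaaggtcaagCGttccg
In siCon the 7 CpGs stood, from left to right, at 100%, 93.5%, 58.7%, 67.4%, 50%, 43.5% and 41.3% of 41 to 46 reads, and in siH19 at 97.2%, 94.4%, 61.1%, 52.8%, 60%, 30.6% and 22.2% of 35 or 36 reads. The CpG farthest from the start was thus the most methylated and the nearest the least methylated in both libraries. This block lies inside the computed island over the start, chr2:26502307-26504621, whose level was 7.82% (6.94 to 8.80) in siCon and 6.14% (5.42 to 6.94) in siH19. The annotation also holds longer Notch1 transcripts with starts farther upstream.

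Notch2 (ENSMUSG00000027878.11, chromosome 3, plus strand), the receptor tied to satellite cell quiescence, had 0.705% (0.462 to 1.08) and 0.523% (0.327 to 0.836) of reads methylated around its start. Its body was the most methylated of the 10, with 75.3% (73.8 to 76.7) in siCon and 81.2% (79.9 to 82.5) in siH19, yet the 14 cytosines between 8 and 16 kb stood at 23.4% (19.9 to 27.3) and 20% (16 to 24.7), next to 98.0% (95.4 to 99.1) and 95.5% (91.1 to 97.8) between 4 and 8 kb. Intron 1 therefore held both methylated and weakly methylated CpGs.

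Notch3 (ENSMUSG00000038146.8, chromosome 17, minus strand), a receptor also found in vascular smooth muscle, had 1.11% (0.720 to 1.71) in siCon and 1.93% (1.39 to 2.67) in siH19 around its start. Its body held islands with intermediate levels of summed reads. Single cytosines of intron 2 and of coding exons 24 and 25 ran from 0% to 100% in both libraries. The island in coding exon 11 was higher, at 82.6% (77.0 to 87.0) in siCon and 83.1% (77.7 to 87.3) in siH19. The intron 2 island, chr17:32161932-32162947, had 51.7% (49.2 to 54.2) and 56.9% (53.6 to 60.1) over 48 cytosines. The islands in coding exons 24 and 25, both singled out after their values were seen, had 44.9% (40.3 to 49.7) and 63.9% (60.2 to 67.4) in siCon, and 54.8% (47.8 to 61.5) and 69.2% (64.9 to 73.2) in siH19. At matched weight the exon 24 island differed by -2.72 points (-8.62 to 3.18), opposite in sign to its summed levels. Coding exon 17 between the island of intron 2 and those exons had 93.3% (87.4 to 96.6) and 89.2% (82.3 to 93.6). It is no measure of that whole span. The measured coding exons there ran from 68.8% and 61.5% in exon 18 to 95.5% and 100% in exon 8, in siCon and siH19. Introns 8 and 16, with 1 used cytosine each, had 69.0% and 20% in siCon, and 59.1% and 0% in siH19. The antisense gene Gm17276 overlaps exon 25 and the exons after it.

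Notch4 (ENSMUSG00000015468.14, chromosome 17, plus strand), the receptor best known from endothelium, differed from the other receptors at both ends. Its start is poor in CpGs, with 26 in the window and an observed to expected ratio of 0.180, against 100 to 131 CpGs in the other receptor windows, and 3 used cytosines were too few for a test. Its body was methylated at 6.54% (5.77 to 7.41) in siCon and 8.07% (7.19 to 9.06) in siH19. Most of those cytosines, 62 of 97, lay in an island of 899 bases at the 3′ end, chr17:34587223-34588121, with 0.520% (0.310 to 0.871) and 0.354% (0.179 to 0.696). Methylated Notch4 CpGs were present too, as intron 18 had 63.1% (55.1 to 70.4) and 61.8% (54.7 to 68.4) over 6 cytosines. In the annotation a non-coding Notch4 transcript starts 182 bases before this island, and the nearest start of another gene is that of Gpsm3, 1685 bases beyond it.

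The last coding exon encodes the C-terminal end of the receptor's intracellular part, and it set Notch4 apart from its paralogs. This comparison was not among the rules for naming and was singled out after its values were seen. In siCon it was methylated at 85.8% (80.8 to 89.7) in Notch1, 95% (93.2 to 96.3) in Notch2, 73.0% (68.4 to 77.2) in Notch3 and 0.329% (0.167 to 0.647) in Notch4. In siH19 the levels were 82.8% (76.5 to 87.7), 96.0% (94.7 to 97), 82.2% (78.8 to 85.1) and 0.151% (0.0512 to 0.442), so the Notch4 exon lay far outside the counting intervals of the others in both libraries. These are levels of summed reads. At matched weight the exons differed by -3.04 points in Notch1, 1.44 in Notch2, 1.86 in Notch3 and -0.202 in Notch4. The 200 bases of each exon that hold the most used CpGs are given from GRCm38 in the direction of the gene, with used CpGs in capitals, to show the difference in CpG content beside it.
Notch1, chr2:26460149-26460348: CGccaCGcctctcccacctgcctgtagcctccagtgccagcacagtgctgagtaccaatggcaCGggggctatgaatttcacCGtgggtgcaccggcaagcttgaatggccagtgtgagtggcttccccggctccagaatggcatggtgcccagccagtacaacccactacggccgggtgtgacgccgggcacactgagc
Notch2, chr3:98146063-98146262: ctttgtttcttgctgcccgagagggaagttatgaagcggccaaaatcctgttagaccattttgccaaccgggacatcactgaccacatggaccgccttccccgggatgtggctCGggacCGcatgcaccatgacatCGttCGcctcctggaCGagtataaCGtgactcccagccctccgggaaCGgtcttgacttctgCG
Notch3, chr17:32122532-32122731: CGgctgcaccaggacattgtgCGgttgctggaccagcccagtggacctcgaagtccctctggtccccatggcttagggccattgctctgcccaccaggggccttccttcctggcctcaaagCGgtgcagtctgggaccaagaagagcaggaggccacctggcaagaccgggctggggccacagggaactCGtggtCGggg
Notch4, chr17:34587496-34587695: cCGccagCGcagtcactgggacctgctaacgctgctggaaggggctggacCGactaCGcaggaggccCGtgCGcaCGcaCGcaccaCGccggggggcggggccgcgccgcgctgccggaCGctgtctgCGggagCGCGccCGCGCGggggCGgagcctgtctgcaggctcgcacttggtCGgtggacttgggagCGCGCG
These stretches hold 10 CpGs in Notch1, 14 in Notch2, 7 in Notch3 and 30 in Notch4. Single CpGs of the Notch4 stretch reached at most 2.63% in siCon and 1.52% in siH19. The lowest CpG of the Notch1 stretch was at 53.5% and 37.8%, while in Notch2 one CpG was lowest in siCon, at 66.7%, and another in siH19, at 83.3% of 6 reads, and that of Notch3 at 51.3% and 53.2%.

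**Figure D3:**
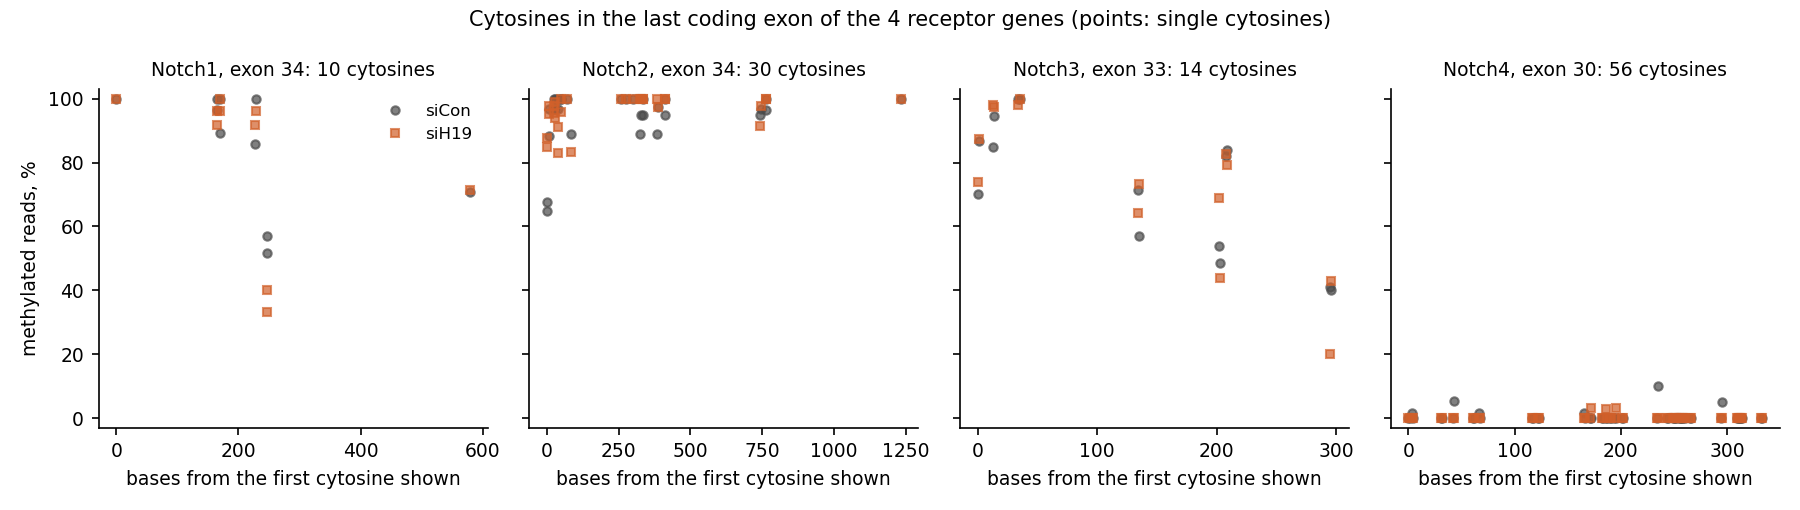
Methylated reads as a percentage of all reads at single cytosines of the last coding exon of the 4 receptor genes, by distance in bases from the first cytosine shown, for siCon (circles) and siH19 (squares). The 56 cytosines of Notch4 exon 30 lie near 0, and the 54 cytosines of the other 3 exons spread from 20% to 100%.

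Hes1 (ENSMUSG00000022528.8, chromosome 16, plus strand), the repressor that Notch switches on in many cell types, was hardly methylated anywhere that reads reached. Its window had 0.671% (0.365 to 1.23) in siCon and 0.828% (0.436 to 1.57) in siH19 over 30 cytosines, none of which lay within 500 bases of the start, so the core promoter itself was not measured. The gene body had 0.773% (0.490 to 1.22) and 0.548% (0.338 to 0.889), which placed it at percentile 0.850 of all gene bodies in siCon. The island ahead of the gene, chr16:30062909-30064678, had 0.880% (0.627 to 1.23) and 0.883% (0.672 to 1.16) over 149 cytosines.

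Hey1 (ENSMUSG00000040289.8, chromosome 3, minus strand), a related repressor and Notch target, was unmethylated at its start and partly methylated at its end. Its window had 0.630% (0.423 to 0.935) in siCon and 1.00% (0.726 to 1.39) in siH19. Coding exon 5, the last, held an island at chr3:8664556-8665054 with 12.9% (10.0 to 16.4) and 16.9% (12.6 to 22.3) over 13 cytosines. The last exon of Hey1 was thus above that of Hes1, whose coding exon 4 had 0.713% (0.417 to 1.22) and 0.437% (0.238 to 0.802).

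The comparison of siH19 with siCon asked whether methylation of these genes differed after the transfection with siH19. No start window was called, 0 of 9, beside 0.641% of 19651 windows of all genes. The differences ran from -0.248 points in Notch2 to 0.818 points in Notch3, with a median of 0.330 points against 0.0888 over all windows. An unadjusted p under 0.05 was reached by 2 of 9 windows, compared with 21.5% of all windows. They were Notch3 (0.818 points, 0.0413 to 1.60, Mantel-Haenszel chi-square p = 0.0427, adjusted p = 0.215) and Hey1 (0.543 points, 0.151 to 0.935, p = 0.0150, adjusted p = 0.119), in both of which the level stayed below 2%. With the reads of both strands summed, the Hey1 window differed by 0.888 points with a Mantel-Haenszel chi-square adjusted p = 0.0107, and within 2 kb of the start Notch3 differed by 2.06 points with a Mantel-Haenszel chi-square adjusted p = 0.00397. These settings are named because they alone among the alternatives gave a start window an adjusted p under 0.05. The share of all windows that reached it was not counted in them, and was 7.46% in the main setting. The window differences of the ligands were 0.488 points in Dll1 (-0.738 to 1.71), 0.575 in Dll4 (-0.198 to 1.35), -0.0118 in Jag1 (-0.310 to 0.287) and 0.330 in Jag2 (-0.0803 to 0.741). Those of Notch1 and Hes1 were 0.119 points (-0.912 to 1.15) and 0.0923 points (-0.724 to 0.909).

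Of the gene bodies 0 of 10 were called, beside 0.304% of 17410 bodies, and 1 of 10 had an unadjusted p under 0.05, beside 12.6%. That body was Notch2, with 1.40 points (0.0752 to 2.73, Mantel-Haenszel chi-square p = 0.0442, adjusted p = 0.376). Among the receptors Notch3 had 1.8 points (0.0311 to 3.56, Mantel-Haenszel chi-square p = 0.0522, the interval resting on a standard error of its own), Notch1 0.164 points (-1.34 to 1.67) and Notch4 -0.195 points (-0.907 to 0.517). The ligand bodies differed by 2.71 points in Dll1 (-2.28 to 7.71), 0.981 in Dll4 (-1.84 to 3.80), -1.02 in Jag1 (-2.24 to 0.199) and -0.669 in Jag2 (-1.86 to 0.521). The target bodies differed by -0.128 points in Hes1 (-0.551 to 0.295) and 3.93 points in Hey1 (-1.26 to 9.12). All 19 intervals of windows and bodies lay inside 10 points in either direction.

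In the Notch1 and Jag2 bodies the levels of summed reads differed between the libraries where the matched differences were near 0. The Notch1 body fell from 61.9% (59.8 to 64.0) to 48.6% (46.6 to 50.6) and the Jag2 body rose from 61.6% (59.9 to 63.2) to 73.9% (72.2 to 75.5), and Fisher's exact test on summed reads called both, with adjusted p = 5.08e-17 and 4.81e-22, beside 8.58% of all bodies. The summed differences of the Notch2 and Notch3 bodies were 5.95 and 5.28 points, under the 10 points of a call, with Fisher's exact adjusted p = 7.77e-08 and 4.23e-05, against 1.40 and 1.8 points at matched weight. In the weakly methylated stretch from 1 to 2 kb, Notch1 had 629 reads in siCon and 1145 in siH19, whereas Jag2 had 1131 and 521. The levels within that stretch were 0.954% and 1.83% in Notch1 and 2.83% and 1.54% in Jag2. At matched weight the 2 differences were 0.164 and -0.669 points, as given above.

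**Figure D4:**
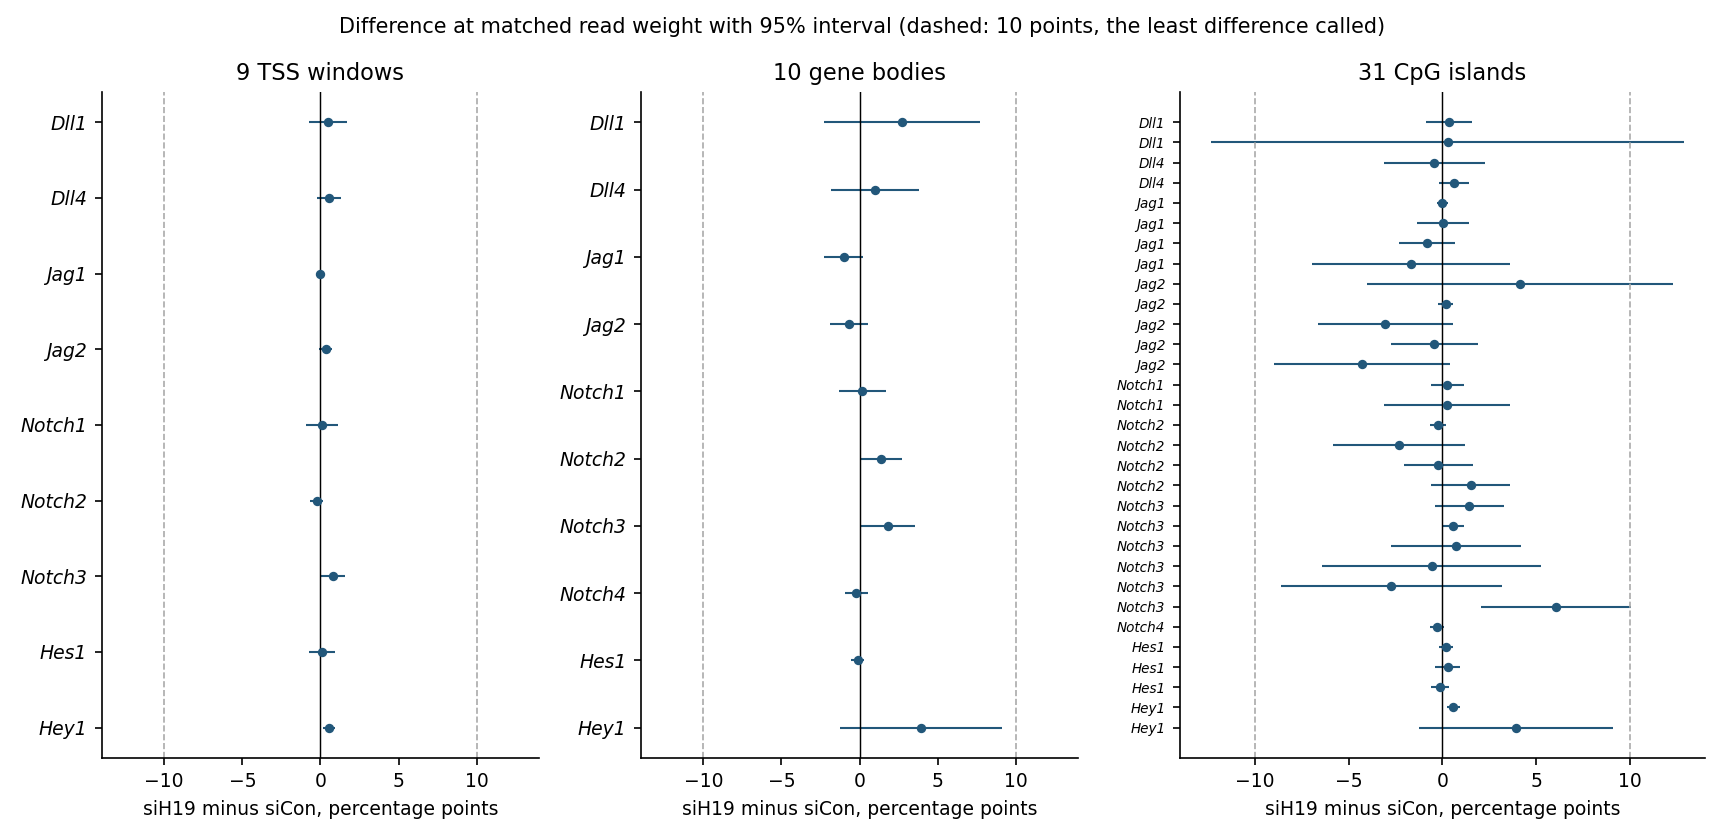
Differences between the libraries, siH19 minus siCon, in percentage points at matched weight with 95% intervals, for 9 start windows, 10 gene bodies and 31 CpG islands, the islands in gene order and by position within a gene. No point reaches the dashed lines at 10 points, and the widest intervals belong to islands with few cytosines.

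Of CpG islands, 57 touched these genes or their windows, and 31 of them had 5 or more cytosines. In siCon 14 of the 31 were below 5% and 10 were at 80% or above. Called were 0 of 31, beside 1.06% of 34260 islands, and 2 had an unadjusted p under 0.05, beside 18.1%. They were the island in Notch3 coding exon 25, chr17:32141019-32141528, with 6.06 points (2.08 to 10.0, Mantel-Haenszel chi-square p = 0.00352, adjusted p = 0.0643), and the island over the Hey1 start, chr3:8666509-8667747, which went from 0.455% to 0.957% (0.594 points, 0.227 to 0.960, p = 0.00474, adjusted p = 0.0762). With strands summed the Hey1 island differed by 0.941 points, with a Mantel-Haenszel chi-square adjusted p = 0.0057. This setting is given for its adjusted p, and no other alternative gave a named island an adjusted p under 0.05. In 28 of the 31 the interval lay inside 10 points. The Notch4 3′ island differed by -0.267 points (-0.644 to 0.110), the Jag2 island upstream of the start by 4.15 points (-4.01 to 12.3) and the Notch3 island in intron 2 by 0.724 points (-2.72 to 4.17).

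For single cytosines the two-sided Fisher's exact test was used, and a cytosine was counted as strongly different at an unadjusted p under 0.05 with at least 33 points. Of the 1915 cytosines 12 passed, which is 0.627%, beside 0.986% of all cytosines. They lay in Dll1 (6), Notch3 (3), Notch1 (2) and Jag1 (1), with 8 higher in siH19, beside 0.519% of all cytosines, and 4 lower, beside 0.467%. None had an adjusted p under 0.05, the lowest being 0.915, beside 0.00648% of all cytosines. At an unadjusted p under 0.05 with no minimum difference there were 26, or 1.36%, beside 2.53%. Of the 12, 9 lay in CpG islands and 3 within 1 kb of a start. The 6 in Dll1 lay in short stretches, chr17:15374765-15374806 and chr17:15376773-15376785. Those at positions 15376784 and 15376785 are both strands of the same CpG, so 6 is not a count of separate places.

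The other strand of the same CpG offered a second look within the same libraries. It had at least 5 reads in both libraries at 11 of the 12 cytosines and moved the same way at 4 of the 11. The Dll1 CpG at positions 15376784 and 15376785 enters the 11 once per strand. In Dll1 coding exon 2, the plus-strand cytosine at position 15374779 of chromosome 17 went from 2 of 16 to 7 of 9 methylated reads (Fisher's exact p = 0.00219), while the minus strand went from 6 of 6 to 8 of 10. Upstream of Dll1, at position 15376773, 797 bases before the start, it went from 2 of 8 to 34 of 42 (Fisher's exact p = 0.00376), and the minus strand from 6 of 10 to 27 of 41. The CpG next to it, singled out after its values were seen, moved in opposite directions on its strands. Its plus strand went from 0 of 8 to 20 of 42 and its minus strand from 8 of 10 to 12 of 42, with Fisher's exact p = 0.0155 and 0.00430. These 2 CpGs are the capitals in the 30 bases chr17:15376765-15376794 (GRCm38, minus strand), shown because the strands of one CpG went opposite ways there.
Dll1 upstream: tccagtgatCGtggacaacaCGgagacagc
With both strands summed the left CpG had 44.4% of 18 reads in siCon and 38.1% of 84 in siH19, and the right CpG 44.4% of 18 and 73.5% of 83. The depth in siCon was thus far below that in siH19 at this place.

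In Notch1 the cytosine at position 26485789 of chromosome 2, in intron 2, went from 4 of 12 to 24 of 30 methylated reads (Fisher's exact p = 0.00894), with 3 of 6 and 12 of 17 on the other strand. The Notch1 cytosine at position 26465538, in coding exon 28, went from 6 of 12 to 15 of 17 (Fisher's exact p = 0.0382), with 20 of 29 and 18 of 27 on the other strand. In Notch3 the cytosine at position 32165797 of chromosome 17, in intron 1, went from 6 of 13 to 13 of 15 (Fisher's exact p = 0.0418), with 1 of 7 and 11 of 23 on the other strand, and that at position 32162372, in intron 2, fell from 16 of 18 to 7 of 13 (Fisher's exact p = 0.0429), with 8 of 11 and 11 of 14 on the other strand. Of these 4 CpGs, the Notch1 intron 2 and Notch3 intron 1 ones moved up on both strands. In Jag1 the cytosine at position 137083008 of chromosome 2, in the 3′ untranslated region, fell from 22 of 25 to 6 of 12 (Fisher's exact p = 0.0355), and its other strand was not used. In Notch2, Notch4, Dll4, Jag2, Hes1 and Hey1 no cytosine passed.

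**Figure D5:**
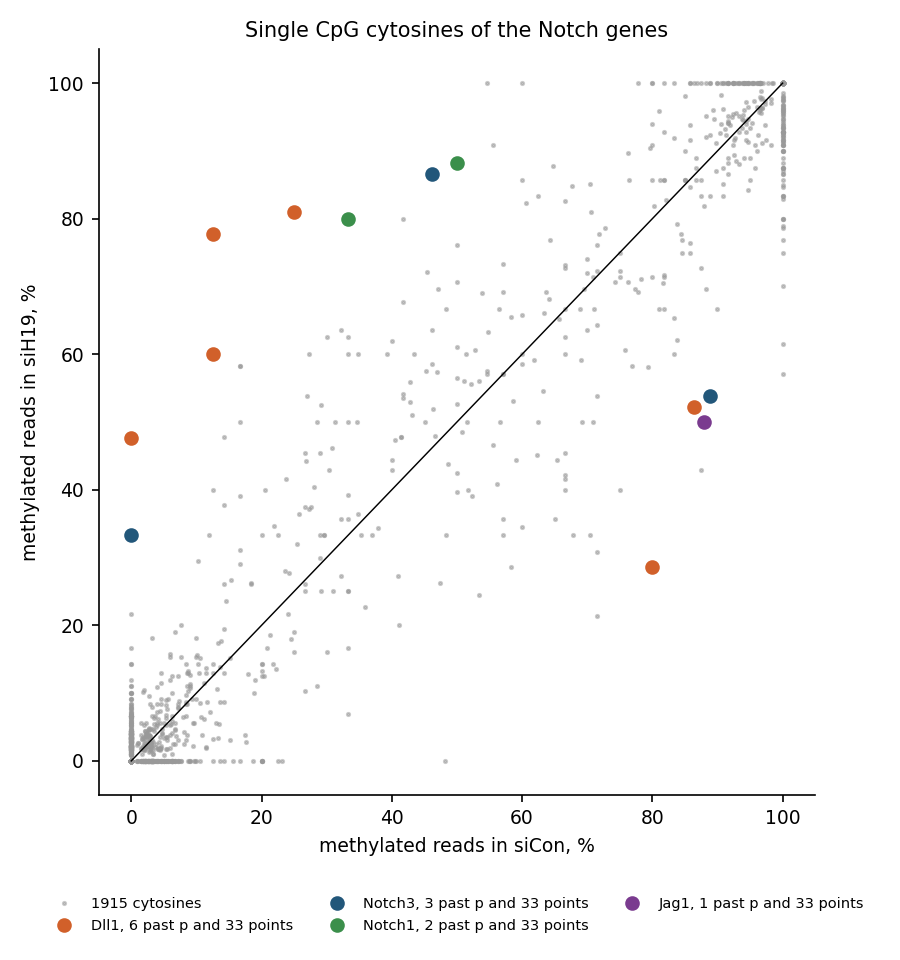
Methylated reads as a percentage of all reads at the 1915 single cytosines of the 10 genes, siCon on the horizontal and siH19 on the vertical axis, with the line of equal levels. The 12 cytosines with an unadjusted p under 0.05 and at least 33 points are coloured by gene, 8 of them above the line, and 6 are in Dll1.

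A pair of motifs of the pathway was searched on both strands in the start windows, GTGGGAA, a sequence bound by Rbpj, and CACGTG, an E-box bound by Hes and Hey proteins. GTGGGAA was found in 6 of the 10 windows, and in 33.2% of 55413 windows of all genes. CACGTG was found in 2 of the 10, Notch3 and Hes1, and in 22.8% of all windows. Used cytosines within 50 bases of a GTGGGAA were weakly methylated: 7.58% in siCon and 4.67% in siH19 in Dll1, 268 bases into the gene, 1.23% and 1.83% in Hes1, 704 bases into the gene, and 0.431% and 0.541% in Hey1, 238 bases into the gene. The GTGGGAA 78 bases before the Hes1 start had no used cytosine within 50 bases. A match of letters is a description and does not show that a factor binds there.

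Beyond the 10 genes, 53 further genes of the pathway were listed by role. Of their start windows 48 were tested and 0 were called, beside the same 0.641%, and 10 had an unadjusted p under 0.05, beside the same 21.5% of all windows. With no minimum difference 4 had an adjusted p under 0.05, compared with 0 of the 9 windows above and 7.46% of all windows. They were, named after their values were seen, Psen2 of γ-secretase with 1.95 points, the ligand Dll3 with 1.76, the corepressor Tle3 with 0.441 and the ubiquitin ligase Neurl1b with -1.47. The median window level was 1.93% in siCon and 1.8% in siH19. The windows of the 14 nuclear partners had a median of 0.448% in siCon, those of the 6 γ-secretase genes 1.42%, those of the 8 further Hes and Hey type targets 9.85%, and those of the 5 other ligands 18.4%. The highest levels in siCon were in Hes7, a clock gene of somite formation, with 80% (76.2 to 83.3), in Rbpjl, a relative of Rbpj, with 40.6% (35.6 to 45.9), and in Cntn1, a contactin described as a Notch ligand, with 38.7% (34.5 to 43.0). The lowest were in Mib2, a ubiquitin ligase of the ligands, with 0.233% (0.0411 to 1.31), in Spen, a corepressor, with 0.258% (0.161 to 0.413), and in Maml1, a coactivator, with 0.265% (0.121 to 0.577). In siH19 these 6 windows stood at 92.4%, 46.5%, 31.8%, 0.917%, 0.349% and 0.708%, and their matched differences were 0.512, -3.78, -0.341, 0.812, 0.102 and 0.419 points.

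Of the bodies of these genes, 46 were tested and 1 was called, beside the same 0.304%. It was Tle4, a Groucho-type corepressor, with 15.8 points (8.92 to 22.8, Mantel-Haenszel chi-square adjusted p = 0.0107) over 21 cytosines. Its summed levels were 40% (34.5 to 45.7) in siCon and 45.7% (39.6 to 52.0) in siH19. The call was lost in the quasi-binomial test with cytosines as the units, with an adjusted p = 0.183, and in Fisher's exact test on summed reads, with an adjusted p = 0.381.

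Markers of muscle and of other cell types were read in the same way as a check of the labels, although methylation does not give expression. Of 10 muscle genes 6 had a tested window, from 2.70% in Ckm and 3.98% in Des to 72.7% in Myog in siCon, and from 4.92% in Ckm to 80% in Myog in siH19. Acta1, Myod1 and Myf5 lay between, at 12.8%, 34.1% and 60.6% in siCon. The windows of 3 epithelial markers ranged from 39.1% to 96.4% in siCon and those of the neuronal genes Rbfox3 and Syn1 were at 6.06% and 23.9%. Only 1 of 4 endothelial genes and 1 of 3 fat cell genes had a tested window. The endothelial gene Kdr was at 18.0% and 18.1%, the fat cell gene Cebpa at 4.12% and 3.94%, and neither of the blood markers had a tested window. With so few windows and such a spread among the muscle genes, the levels could not tell whether the labels were right. The part of cell mixture in the levels above was not tested.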

How the data were processed

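Genomic DNA of the siCon and siH19 myotubes was profiled by reduced representation bisulfite sequencing. The deposited files held methylated and total reads per CpG cytosine and strand as text counts, beside a score by the authors (share of methylated reads, scaled to 1000) that matched the counts at 100% of entries and was not used further. The authors' alignment used Bismark, run as non-directional, and filled-in bases were trimmed. The submitters' processing notes name bcl2fastq 1.8.4 and mm10. Duplicate removal was not given in the sources used here.

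Positions were matched to RefSeq GRCm38.p6, and gene starts and extents were those of the principal transcript in GENCODE. CpG islands were computed from 200 bp, a GC content of 50% and an observed to expected ratio of CpGs of 0.6 upwards. Of 3413804 cytosines with at least 5 reads in both libraries, 1563169 inside CCGG or TCGA were left out. In the Jag1 start window such cytosines read 49.1% methylated in siCon against 0.749% for the others. The median depth of the cytosines used was 24 reads in both libraries. Groups followed the labels.

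Tests were Fisher's exact test per cytosine and the Cochran-Mantel-Haenszel test per region, computed with numba 0.67.0 and scipy 1.17.1 and tested on simulated data, with p-values adjusted over all genes or cytosines. All 10 genes were named. The islands named were that over the start and, per gene, the other island with most used cytosines, and the single cytosines were the 2 with the lowest p per gene. Of the further pathway genes, the called ones and the 3 highest and 3 lowest windows were named. The genes, lists and rules were chosen with earlier results of these data known. Alternatives were other read minimums, windows, tests and cytosine sets.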

Additional observations from a re-analysis of the deposited data

How the results depend on the processing

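Of the 10 genes, no start window or island was called under any alternative run, and no gene body except under Fisher's exact test on summed reads, which called 2, Notch1 and Jag2. The 12 strongly different cytosines of 1915 became 0 with adjusted p-values, 33 of 2712 with restriction-site cytosines kept (1.42% of all cytosines), 4 of 1085 with strands summed (0.757%) and 9 of 1645 with at least 10 reads (0.773%). Of the single regions 274 comparisons with an alternative kept their direction and their side of the threshold, 5 kept their direction and gained an adjusted p under 0.05 (the Notch2 and Notch3 bodies with summed reads, the Hey1 window and start island with summed strands, the Notch3 window at 2 kb), and 23 changed sign, of which the Notch1 and Jag2 bodies also gained one. Of the 274, the 37 with no minimum difference were fixed in advance. That setting changes the call but neither the difference nor its p-value. The 37 of the quasi-binomial test reuse the main differences, so only their side of the threshold could change. The sign changes, in points, were as follows. Summed reads gave -1.52 for the Notch1 window, 2.77, 12.4, -13.4 and 1.53 for the bodies of Jag1, Jag2, Notch1 and Notch4, and -2.62, -0.0514 and -1.69 for the Dll1 exon 9 island and the Notch1 islands in intron 27 and over the start. At least 10 reads gave 0.0228 for the Jag1 window and the island in it. Restriction-site cytosines kept gave 0.282 for the Hes1 body and 0.487, -0.0163, -0.879, -0.129 and -0.209 for islands of Dll4 (upstream), Hes1 (upstream), Jag1 (exon 2), Jag2 (start) and Notch3 (intron 2). Summed strands gave -0.189 for the Dll4 body. Windows of 500 bp gave -0.0255 for Dll1 and 0.0427 for Jag1, and of 2 kb -0.461 for Dll4. The whole gene gave 0.0226 for Hes1 and 0.0530 for Jag2, and the GENCODE gene record, chosen after seeing the data, 0.0226 for Hes1. The cause was not tested. The quasi-binomial test called 0 regions here and 0.0865% of all start windows. No paired analysis was possible because each group had 1 library. Depth limits single cytosines more than regions, as the 12 had as few as 8 reads in a library.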
